A study of Mus musculus with 8 samples.

Results

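Rab GTPases are small GTP-binding proteins that give intracellular membranes their identity. A Rab is loaded with GTP by an exchange factor, recruits effectors that move, tether or fuse vesicles, and is switched off by a GTPase-activating protein, after which it returns to the cytosol. Megakaryocytes, the marrow cells from which platelets are shed, depend on such traffic to sort cargo from the Golgi and from endosomes into platelet granules and to build the internal membranes from which platelets form. Described here are the 53 genes, of 27679 in the count table, whose symbol is Rab with a number and at most 1 letter (Rab1a to Rab43). Rab27a, Rab27b, Rab32, Rab38 and pseudogenes were left out by that rule, which used names alone and no measured value. Of the 53, 15 act mainly in the endocytic route, 9 in recycling, 20 in secretion (11 at the endoplasmic reticulum and Golgi, 9 in exocytosis) and 9 elsewhere. Several Rabs serve more than 1 route, and each gene was counted once. The members and their routes were chosen with earlier results of these data known.

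Transcripts were counted by RNA-seq of polyA-selected RNA, with stranded libraries, in cells labelled as megakaryocytes from the bone marrow of WT C57BL/6 mice, whose age is not given in the sources used here. The hydrogel group comprised 4 libraries of lineage-negative marrow cells cultured for 3 days in methylcellulose at 2%, a soft gel with a Young modulus (stiffness) of 30 to 60 Pa. The liquid group comprised 4 libraries of such cells cultured for 3 days in liquid medium. In both groups the larger, mature cells were enriched on a BSA gradient of 2 to 4%, a selection by size and not by a surface marker. The series design describes the 4 cultures of each kind as independent biological replicates. The comparison asks how transcripts differ between cells grown in the gel and cells grown in liquid. The stiffness of the gel and the presence of methylcellulose differ together between the groups, so their parts cannot be told apart.

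Each hydrogel library held 27012172 to 37059314 counts and each liquid library 28825468 to 49281611 counts. Hydrogel 1 and liquid 2 stood apart from their groups. On the leading principal component, which held 65.1% of the variance, the score was 16.8 for hydrogel 1 and 46.0 to 52.3 for its group mates, and −17.0 for liquid 2 and −53.1 to −47.4 for its own. All 20 listed megakaryocyte markers had enough reads to be tested, with summed levels of 37700 to 55500 CPM (counts scaled to a common library size by TMM) in hydrogel and 43000 to 73600 CPM in liquid; 14 of them fell and 0 rose. Macrophage markers moved the other way: 16 of 20 rose and 0 fell, with summed levels of 4350 to 9430 CPM in hydrogel and 1170 to 2560 CPM in liquid, and none was at 0 in all libraries. Their summed level was lowest among hydrogel libraries in hydrogel 1 and highest among liquid libraries in liquid 2. Of the tested neutrophil markers 2 of 12 rose and 2 fell, of the dendritic cell markers 1 of 7 rose and 5 fell, and of the erythroid markers 1 of 6 rose and 2 fell. For comparison, 15.1% of all tested genes rose and 14.1% fell. Hydrogel 1 and liquid 2 differed from their groups in other markers too. Liquid 2 had the highest sums of neutrophil (1810 CPM), dendritic cell (75.4 CPM) and mast cell and basophil markers (560 CPM). Hydrogel 1 had the lowest of each within its group (421, 37.1 and 65.5 CPM). The megakaryocyte marker sum was 55500 CPM in hydrogel 1 and 43000 CPM in liquid 2.

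Rab transcripts changed in both directions in hydrogel. The rises were mostly of endocytic Rabs (5 of 7), led by Rab7b, Rab20 and Rab31. That route held 15 of the 48 tested members, and 3 of them fell, among them the largest fall of the family, Rab36. No test compared the routes. The falls included 4 of the 7 tested recycling Rabs, Rab4a, Rab11a, Rab11b and Rab17, and were spread over all routes. Of the 53 members, 48 had enough reads to be tested, and 20 of these passed at 0.05 in edgeR's quasi-likelihood test, after Benjamini-Hochberg adjustment over all tested genes. That is 41.7% of the tested members, beside 29.3% of all 13845 genes tested. Without hydrogel 2, 19 of the 48 members and 19.1% of all genes passed, and without liquid 2, 28 members and 35.4% of all genes. Of the 20 members called with all 8 libraries, 7 rose (14.6% of the members, 15.1% of all genes) and 13 fell (27.1% of the members, 14.1% of all genes). The share that rose was therefore near the background. The median log2 change was −0.15 over the 48 members and −0.01 over all tested genes. In bulk RNA such as this, fewer cells of a type and less RNA per cell cannot be told apart.

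The 4 hydrogel libraries lay wholly above the 4 liquid libraries for 9 members and wholly below them for 18, while 21 overlapped; over all tested genes, 28.4% did not overlap, 14.6% above and 13.8% below. A change of at least 2-fold was seen for 8 of the 20 called members, 3 of which rose and 5 of which fell. The share of all genes past that fold was not counted, so this number describes the members only. The balance of calls moved with the scaling between libraries: upper-quartile scaling gave 5 members that rose and 16 that fell (1755 and 2492 of all genes), and library totals alone gave 11 and 13 (2280 and 1513 of all genes). Rab3b, Rab15, Rab25, Rab26 and Rab42 had too few reads to be tested, with at most 31 reads summed over the hydrogel libraries and 42 over the liquid libraries.

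**Figure D1:**
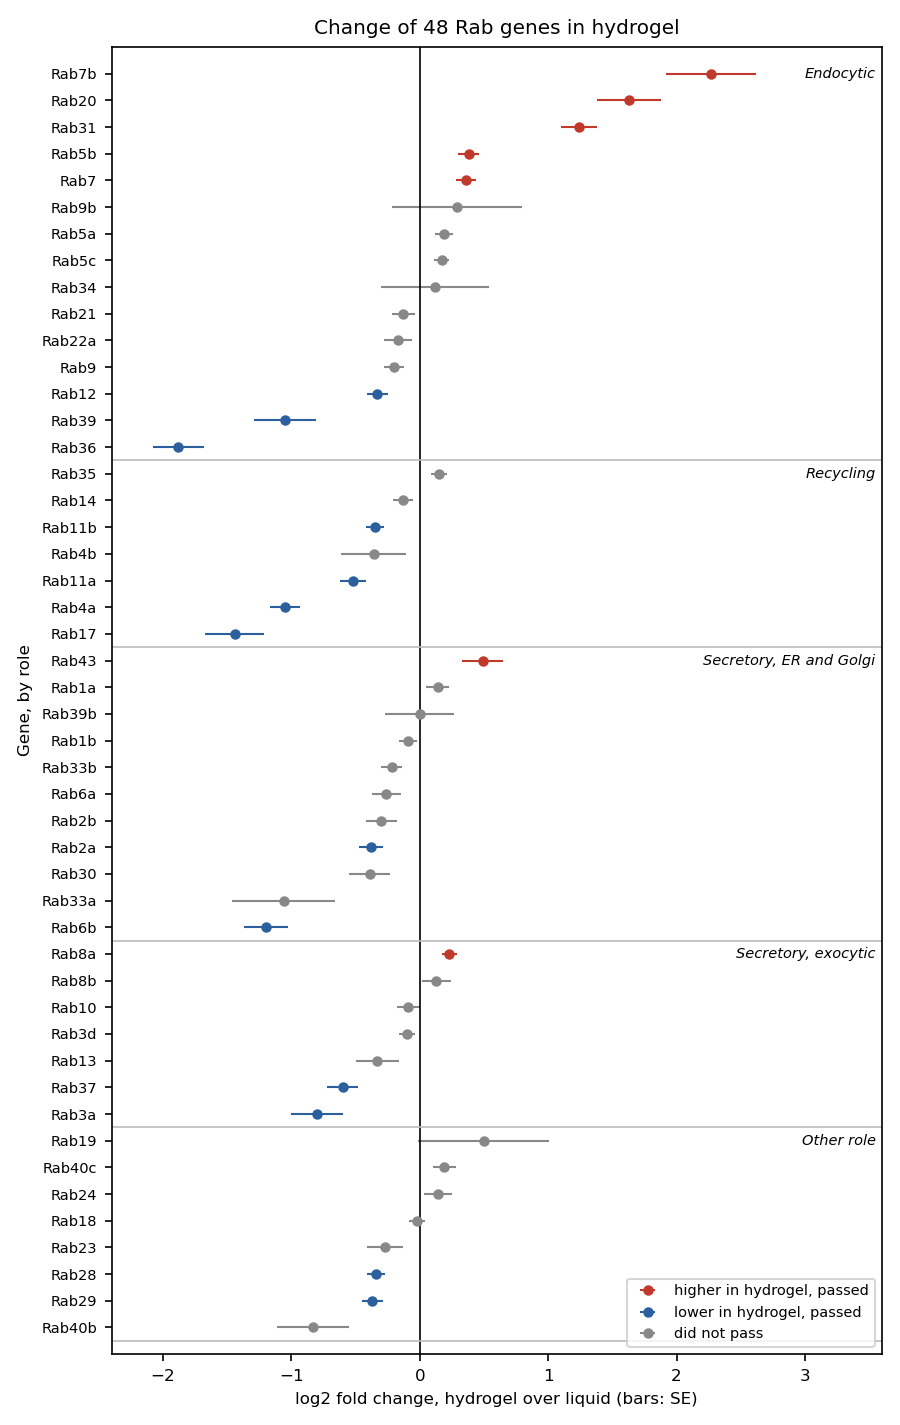
Log2 fold change of each of the 48 tested Rab genes, hydrogel over liquid (x axis), with its standard error as a bar, grouped by role and ordered by change (y axis). Red points passed the test as higher in hydrogel (7 genes), blue points passed as lower (13 genes) and grey points did not pass; 5 of the red points are endocytic Rabs, and the recycling Rabs hold 4 blue points and no red one.

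The macrophage marker score, the mean centred log2 CPM of the 20 macrophage markers, shared 82.0% of its variance with the cultures, a variance inflation factor of 5.56, so that its part in a change and that of the culture largely cannot be told apart. With the score as a covariate, a fit chosen after seeing the data, 1 of 48 members was called, Rab4a, with a log2 change of −1.23 (edgeR adjusted p = 0.0295), beside 4.72% of all genes (2.56% that rose and 2.16% that fell). In the same fit the log2 change was 0.15 ± 0.20 for Rab7b (edgeR adjusted p = 0.749), 0.44 ± 0.17 for Rab31 (0.158) and −0.95 ± 0.30 for Rab36 (0.0962), against 2.27 ± 0.35, 1.24 ± 0.14 and −1.88 ± 0.20 without the score. The changes of Rab7, Rab11a, Rab11b and Rab12 shrank too. With the score they were 0.12 ± 0.18, −0.04 ± 0.17, −0.08 ± 0.14 and −0.10 ± 0.18 in that order. Without it they were 0.36 ± 0.08, −0.52 ± 0.10, −0.35 ± 0.07 and −0.33 ± 0.08. Rab2a (0.07 ± 0.15, against −0.38 ± 0.09) and Rab37 (0.10 ± 0.14, against −0.60 ± 0.12) changed sign. Some other members lost their call with a change of similar size and a larger standard error. Rab3a was at −0.95 ± 0.43 with the score and −0.80 ± 0.20 without it, Rab17 at −1.21 ± 0.56 and −1.44 ± 0.23, and Rab29 at −0.32 ± 0.19 and −0.37 ± 0.08 (edgeR adjusted p with the score 0.251, 0.259 and 0.384 in that order). The same held for Rab8a, at 0.31 ± 0.15 with the score and 0.23 ± 0.06 without it, and Rab43, at 0.42 ± 0.39 and 0.49 ± 0.16 (0.256 and 0.611). Leaving out hydrogel 1 and liquid 2 together, also chosen after seeing the data, raised the calls to 31 of 48 members, 11 that rose and 20 that fell, beside 40.6% of all genes (21.6% that rose and 19.0% that fell). Both lay nearest the other culture on the leading principal component. Their removal widens the gap between the cultures there, so the added calls are no added support. Leaving out any 1 library gave 18 to 28 called members.

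**Figure D2:**
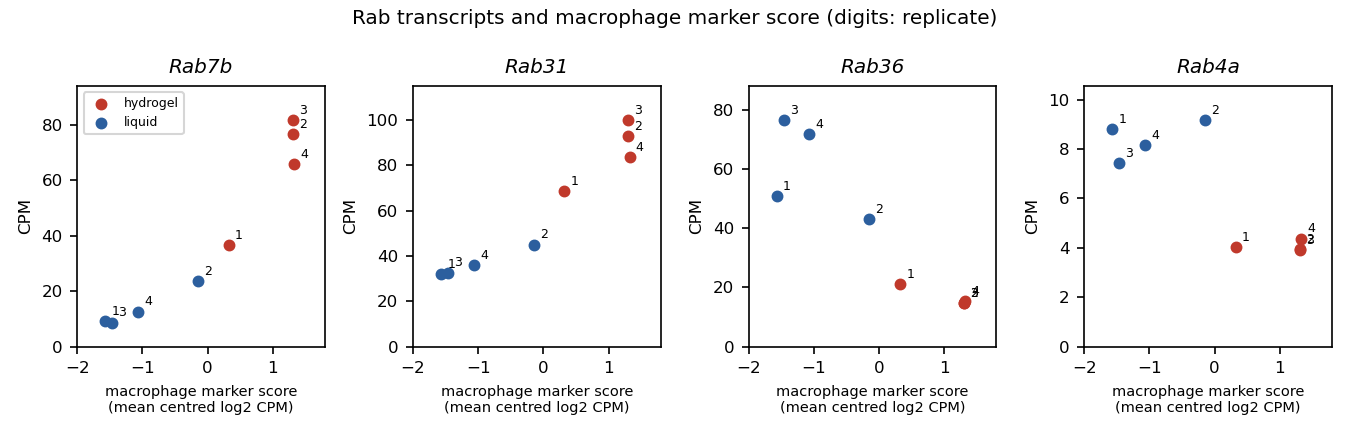
Level of Rab7b, Rab31, Rab36 and Rab4a in CPM (y axes, from 0) against the macrophage marker score of the library (x axes, mean centred log2 CPM of 20 markers), with hydrogel libraries in red, liquid libraries in blue and the replicate number beside each point. Hydrogel 1 and liquid 2 lay between the other libraries in score and in the levels of Rab7b, Rab31 and Rab36, while Rab4a lay at 3.91 to 4.37 CPM in hydrogel and 7.44 to 9.17 CPM in liquid, with hydrogel 1 and liquid 2 inside or beyond the range of their own groups.

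Before the routes are taken in turn, the stretch upstream of the start of 4 genes is shown: the 2 that rose and the 2 that fell with the largest fold changes among the called members that have an entry in the RefSeq promoter table used here (build GRCm38.p6), which holds 45 of the 53 members. Each sequence is the 250 bases before the annotated start, given 5′ to 3′ on the strand of the gene. Capitals mark matches to 5 motifs searched on both strands. The letters searched were GATAAG for GATA factors, CCGGAAG for ETS factors, TGANTCA for AP-1, CACGTG as an E-box and GGGCGG as a GC-box. The last of these appears as CCGCCC where it lies on the other strand, as in Rab6b. None of the motifs contains another. Rab20 lies on the minus strand (chr8:11478641-11478890) and holds a GC-box and an E-box. Rab31 (chr17:65772753-65773002, minus strand) and Rab6b (chr9:103111824-103112073, plus strand) each hold a GC-box. Rab17 (chr1:90967668-90967917, minus strand) holds none of the 5.
Rab20: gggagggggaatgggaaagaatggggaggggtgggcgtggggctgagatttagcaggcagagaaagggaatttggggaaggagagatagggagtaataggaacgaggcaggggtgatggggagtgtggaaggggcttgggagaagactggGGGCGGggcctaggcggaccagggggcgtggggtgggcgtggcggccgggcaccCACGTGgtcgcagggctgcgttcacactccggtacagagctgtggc
Rab31: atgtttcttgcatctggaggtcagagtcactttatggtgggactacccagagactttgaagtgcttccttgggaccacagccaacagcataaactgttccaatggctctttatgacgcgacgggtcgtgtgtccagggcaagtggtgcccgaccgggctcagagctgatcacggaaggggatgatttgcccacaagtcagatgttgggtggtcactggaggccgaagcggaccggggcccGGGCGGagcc
Rab17: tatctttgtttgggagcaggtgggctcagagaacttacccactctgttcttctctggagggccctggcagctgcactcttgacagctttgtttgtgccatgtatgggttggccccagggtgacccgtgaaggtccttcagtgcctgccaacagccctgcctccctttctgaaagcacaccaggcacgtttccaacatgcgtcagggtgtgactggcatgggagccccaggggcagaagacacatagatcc
Rab6b: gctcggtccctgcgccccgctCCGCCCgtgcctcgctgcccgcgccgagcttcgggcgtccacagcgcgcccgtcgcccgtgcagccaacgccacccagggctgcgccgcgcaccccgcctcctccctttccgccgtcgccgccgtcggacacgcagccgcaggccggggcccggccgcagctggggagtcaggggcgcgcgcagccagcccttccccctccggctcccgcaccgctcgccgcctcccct

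The GC content of these stretches was 65.2% for Rab20, 57.6% for Rab31, 56.8% for Rab17 and 80.8% for Rab6b. Among members with an entry, the GC-box was found in 5 of 6 that rose, 6 of 9 that fell and 20 of 26 that did not pass, and in 32.7% of the 32851 promoters of the table. The GATA motif was found in 1 of 6, 0 of 9 and 3 of 26, and in 6.55% of all promoters. The E-box was found in 1 of 6, 0 of 9 and 3 of 26 (6.02% of all), the ETS motif in 1 of 6, 1 of 9 and 1 of 26 (6.91%), and the AP-1 motif in 0 of 6, 0 of 9 and 1 of 26 (6.75%). These are matches of letters within 250 bases and describe no binding.

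Endocytic Rabs guide cargo from the plasma membrane through early and late endosomes to lysosomes. All 15 were tested: 5 rose, 3 fell and 7 did not pass, which is 53.3% called, with a median log2 change of 0.17. Over all tested genes 29.3% were called, 15.1% that rose and 14.1% that fell. Each route holds few genes, and no test compared a route with that background. The 3 largest rises of the family, Rab7b, Rab20 and Rab31, were all in this route, as was the largest fall, Rab36. Summed over the 15 genes, the level per kilobase of exon was 350 ± 18.6 CPM per kb in hydrogel and 306 ± 16.4 CPM per kb in liquid (SD, n = 4 each). The groups met at their ends, with 325 to 370 CPM per kb in hydrogel and 290 to 325 in liquid. As a share of all 53 members the endocytic sum was 32.0 ± 1.51% in hydrogel (29.7 to 32.9%) and 27.0 ± 1.24% in liquid (26.1 to 28.8%). That share did not overlap between the groups, and it also depends on the levels of the other routes.

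Rab7b (ENSMUSG00000052688), which acts in transport from late endosomes to the trans-Golgi network and is known from macrophages for limiting Toll-like receptor signalling, had the largest rise. It had 36.6, 76.7, 81.7 and 65.7 CPM in hydrogel libraries 1 to 4, against 9.31, 23.7, 8.65 and 12.6 CPM in liquid libraries 1 to 4. The groups did not overlap, hydrogel 1 was the lowest hydrogel library and liquid 2 the highest liquid library. The means of 65.2 ± 20.2 CPM in hydrogel and 13.6 ± 6.97 CPM in liquid (SD, n = 4 each) differed by a log2 change of 2.27 ± 0.35 (SE), 4.82-fold, with an edgeR adjusted p of 0.0013. Without hydrogel 1 and liquid 2 the log2 change was 2.89. Leaving out the lowest hydrogel and the highest liquid library had to enlarge it, so this value is no added support.

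Rab20 (ENSMUSG00000031504), a Rab of maturing phagosomes, had 785 reads in the hydrogel libraries and 294 in the liquid libraries. Its levels were 4.47, 7.25, 7.12 and 6.31 CPM in hydrogel against 2.38, 2.14, 2.40 and 1.22 CPM in liquid, so that every hydrogel library exceeded every liquid library. The log2 change was 1.63 ± 0.25, which is 3.09-fold (edgeR adjusted p = 0.00124), and 1.24 once the macrophage score entered as a covariate (adjusted p = 0.251). E230013L22Rik, on the opposite strand, covers 25.6% of the exon bases of Rab20 and had 56 reads in all, against 1079 for Rab20. Rab31 (ENSMUSG00000056515), which carries cargo between the trans-Golgi network and endosomes, had 68.5, 92.8, 100 and 83.5 CPM in hydrogel against 32.1, 44.97, 32.7 and 35.9 CPM in liquid. Here too the groups were apart, with hydrogel 1 low and liquid 2 high within their groups. The log2 change was 1.24 ± 0.14, 2.37-fold (edgeR adjusted p = 0.000383).

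Rab7 (ENSMUSG00000079477), the general Rab of late endosomes and lysosomes, had 75.6 CPM per kb in hydrogel, against 14.1 for Rab7b. Its levels were 167, 199, 222 and 201 CPM in hydrogel against 149.6, 150.5, 154 and 159 CPM in liquid, a log2 change of 0.36 ± 0.08 (edgeR adjusted p = 0.0102). The lowest hydrogel library, hydrogel 1, lay just above the highest liquid library. Rab5b, an early endosome Rab, had 37.8, 40.1, 46.2 and 43.3 CPM in hydrogel against 30.0, 30.8, 32.7 and 34.9 CPM in liquid, a log2 change of 0.38 ± 0.08 (edgeR adjusted p = 0.00794).

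Its close relatives Rab5a and Rab5c did not pass, although their libraries were also apart between cultures. Rab5c, the most abundant member per kilobase of exon, had 279, 290.3, 293 and 294 CPM in hydrogel against 249.4, 248, 273 and 254 CPM in liquid (log2 change 0.17 ± 0.06, edgeR adjusted p = 0.0604). Rab5a had 44.5, 45.7, 45.8 and 43.13 CPM in hydrogel against 37.9, 37.5, 43.08 and 38.1 CPM in liquid (0.19 ± 0.07, adjusted p = 0.0568). The log2 ratio of Rab5b to Rab5c was higher by 0.20 in hydrogel, which did not pass (exact permutation p = 0.0571).

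**Figure D3:**
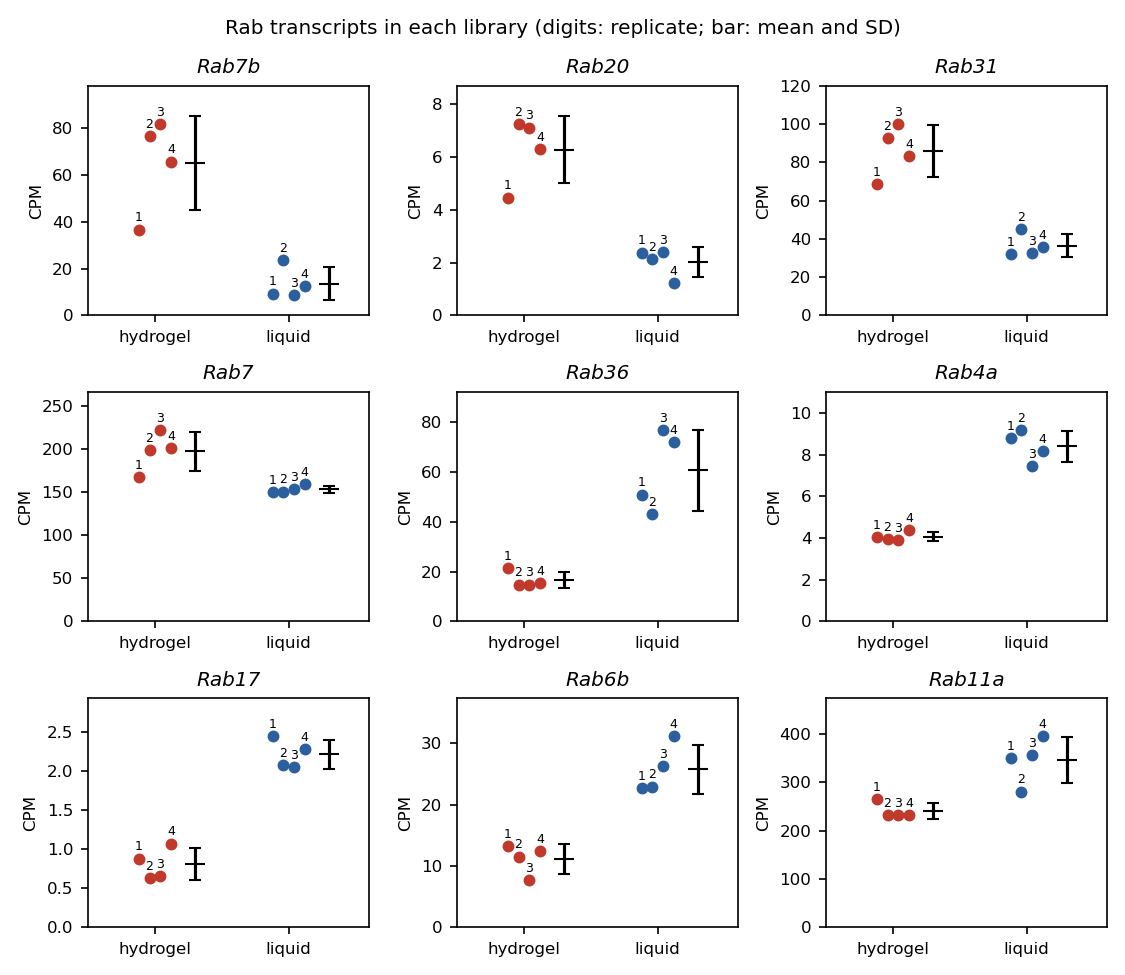
Level in CPM (y axes, from 0) of 9 called Rab genes in each hydrogel library (red, left) and each liquid library (blue, right), with the replicate number above each point and the mean and SD as a bar. In each of the 9 panels the 4 hydrogel libraries lie wholly above the liquid libraries (Rab7b, Rab20, Rab31, Rab7) or wholly below them (Rab36, Rab4a, Rab17, Rab6b, Rab11a).

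Rab36 (ENSMUSG00000020175), which positions late endosomes and lysosomes, fell. It had 21.3, 14.8, 14.7 and 15.3 CPM in hydrogel against 50.8, 43.03, 76.6 and 71.9 CPM in liquid. Hydrogel 1 stood highest within its group and liquid 2 lowest within its own, and the groups were far apart. The log2 change of −1.88 ± 0.20, a level 3.67-fold lower in hydrogel, had the smallest adjusted p of the family (edgeR adjusted p = 0.000329). Rab39, a Rab of endosomes and autophagy, had 1.18, 0.9997, 1.17 and 0.906 CPM in hydrogel against 1.701, 1.74, 2.79 and 2.54 CPM in liquid. Its groups were apart too, and it averaged 1.06 ± 0.133 CPM in hydrogel and 2.19 ± 0.555 CPM in liquid (SD, n = 4 each; log2 change −1.05 ± 0.24, edgeR adjusted p = 0.00939). Rab12, which directs transferrin receptor from recycling endosomes to lysosomes, averaged 34.2 ± 0.589 CPM in hydrogel and 43 ± 4 CPM in liquid (log2 change −0.33 ± 0.08, edgeR adjusted p = 0.0107). The members that did not pass, among them Rab21 of integrin endocytosis (log2 −0.13), Rab22a (−0.17) and Rab9 of the late endosome to Golgi route (−0.20), had log2 changes from −0.20 to 0.29.

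Recycling Rabs return endocytosed membrane and receptors to the cell surface. Of 9 members, 7 were tested: 4 fell, 0 rose and 3 did not pass, which is 57.1% called, with a median log2 change of −0.36. Of all tested genes 29.3% were called, and 14.1% fell. With 7 genes this difference was not tested. Of the tested members, 6 had a negative log2 change, and Rab35 had a positive one (0.15, edgeR adjusted p = 0.0981). Their summed level was 150 ± 4.69 CPM per kb in hydrogel (147 to 157) and 189 ± 19.7 CPM per kb in liquid (162 to 209), without overlap. As a share of all members it was 13.7 ± 0.532% in hydrogel (13.0 to 14.3%) and 16.7 ± 0.763% in liquid (16 to 17.6%). Rab11a alone had 80.4 CPM per kb in hydrogel and 116 in liquid, so the sum and the share mainly follow that gene. Rab35 had 36.6 CPM per kb in hydrogel and 32.9 in liquid.

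Rab4a (ENSMUSG00000019478), which drives rapid recycling from early endosomes, had 4.03, 3.94, 3.91 and 4.37 CPM in hydrogel against 8.80, 9.17, 7.44 and 8.17 CPM in liquid. The libraries of each culture lay close together, hydrogel 1 lay within the range of its group, and liquid 2 was the highest of all, so that the pair that stood apart elsewhere did not lie between the groups here. The log2 change was −1.05 ± 0.12, a level 2.06-fold lower in hydrogel (edgeR adjusted p = 0.000482), and it passed under each of 18 alternatives, with log2 changes from −1.23 to −0.98. Its relative Rab4b had 2.11, 1.25, 2.37 and 1.26 CPM in hydrogel against 2.47, 2.07, 2.11 and 2.30 CPM in liquid. These overlapped, and the log2 change of −0.36 ± 0.25 did not pass (edgeR adjusted p = 0.313); 65.0% of the exon bases of Rab4b are shared with Gm21983 on the same strand, so that its count is uncertain.

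Rab11a (ENSMUSG00000004771), the principal Rab of the recycling endosome and the most abundant of this route per kilobase of exon, had 266, 233, 232 and 232 CPM in hydrogel against 349.9, 281, 357 and 396 CPM in liquid. Hydrogel 1 was the highest of its group and liquid 2 the lowest of its own, and the groups were apart. The means were 241 ± 16.8 CPM in hydrogel and 346 ± 47.7 CPM in liquid (SD, n = 4 each), a log2 change of −0.52 ± 0.10 (edgeR adjusted p = 0.00496), against −0.04 once the macrophage score entered as a covariate (adjusted p = 0.928). Rab11b had 57.8, 55.3, 54.1 and 55.3 CPM in hydrogel against 73.7, 62.9, 73.1 and 74.8 CPM in liquid (log2 change −0.35 ± 0.07, edgeR adjusted p = 0.00444). Its groups were apart as well, with liquid 2 the lowest liquid library. Rab17, a recycling Rab studied mainly in polarised epithelia, had 0.877, 0.625, 0.657 and 1.07 CPM in hydrogel against 2.44, 2.07, 2.05 and 2.27 CPM in liquid. Every hydrogel library was below every liquid library. The change rests on 103 reads in hydrogel and 318 in liquid and came to a log2 of −1.44 ± 0.23 (edgeR adjusted p = 0.00167). Rab14, of the Golgi to endosome route, averaged 273 ± 2.19 CPM in hydrogel and 298 ± 33.7 CPM in liquid and did not pass (log2 −0.13, edgeR adjusted p = 0.292).

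**Figure D4:**
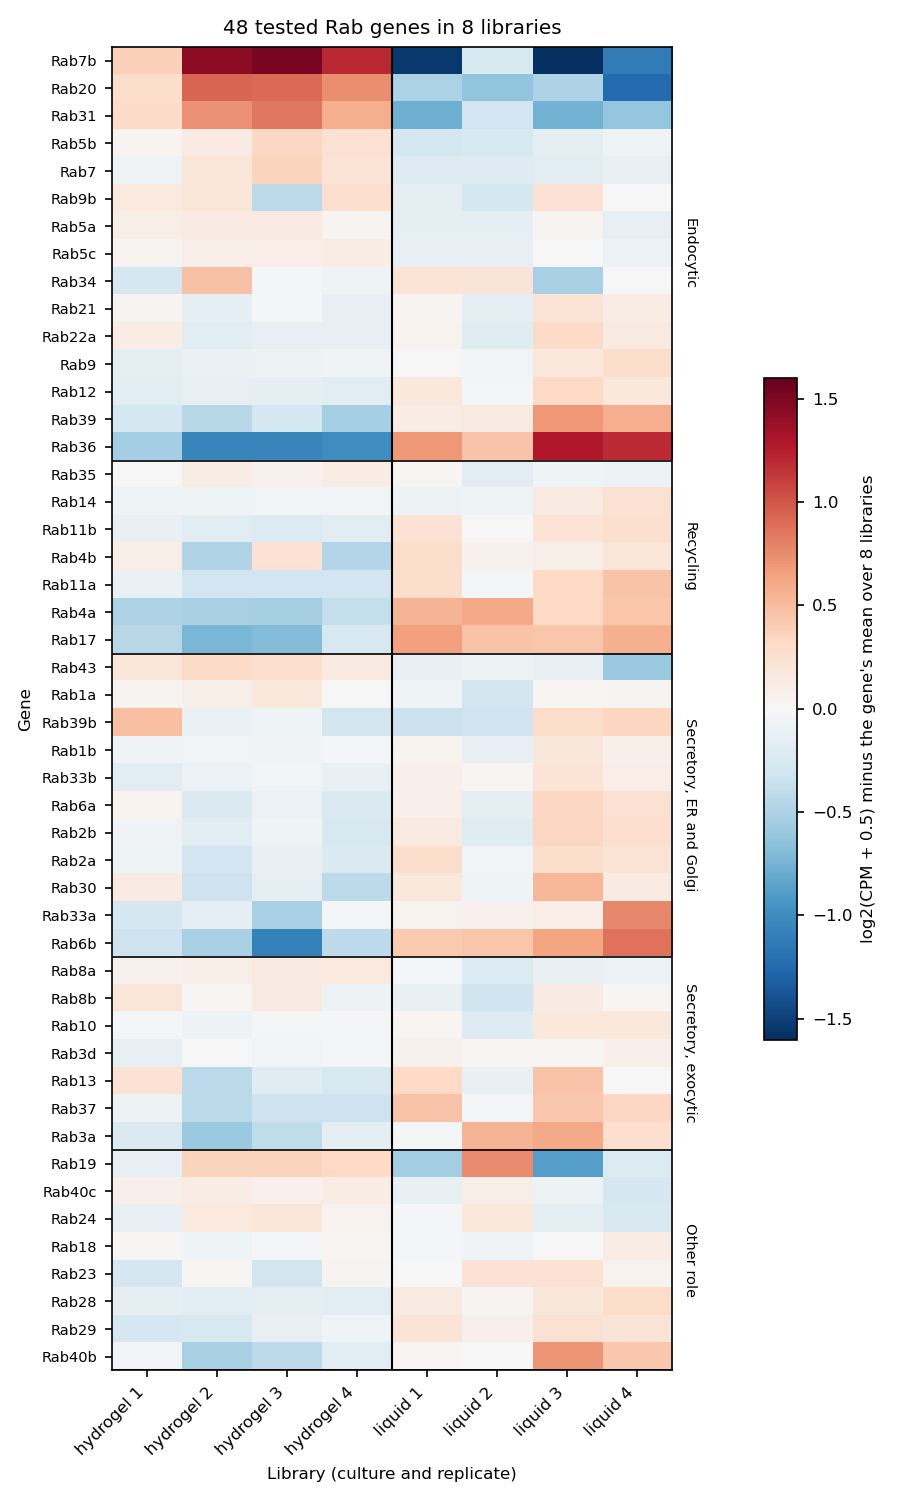
Level of the 48 tested Rab genes (rows, grouped by role) in the 4 hydrogel and 4 liquid libraries (columns), as log2(CPM + 0.5) minus the mean of the gene over the 8 libraries; red is above and blue below that mean. The colours are strong for Rab7b, Rab20, Rab31 and Rab36, and are paler in hydrogel 1 than in the other hydrogel libraries for each of these 4 genes.

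The Rabs of the endoplasmic reticulum and Golgi carry newly made protein forward and return membrane. All 11 were tested: 1 rose, 2 fell and 8 did not pass (27.3% called, near the 29.3% of all genes, median log2 change −0.26). Their summed level was 326 ± 10.8 CPM per kb in hydrogel and 354 ± 37.0 CPM per kb in liquid (SD, n = 4 each), and the groups overlapped. Rab6b (ENSMUSG00000032549), a Golgi Rab best known from neurons, had 13.2, 11.5, 7.66 and 12.4 CPM in hydrogel against 22.7, 23.0, 26.3 and 31.2 CPM in liquid. The groups were apart, and the log2 change was −1.20 ± 0.17, a level 2.30-fold lower in hydrogel (edgeR adjusted p = 0.000976). The widely used isoform Rab6a had 270.4, 222, 245 and 222 CPM in hydrogel against 276, 233, 328 and 308 CPM in liquid, with overlap (log2 change −0.26 ± 0.11, edgeR adjusted p = 0.114).

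Rab2a, of the step between endoplasmic reticulum and Golgi, had 101, 85.9, 97.7 and 90.2 CPM in hydrogel against 129.9, 103, 129 and 125 CPM in liquid. Every hydrogel library was below every liquid library, by little between hydrogel 1 and liquid 2, and the log2 change was −0.38 ± 0.09 (edgeR adjusted p = 0.0108). Rab2b had 13.7, 12.5, 13.7 and 11.9 CPM in hydrogel against 15.9, 12.5, 18.1 and 17.4 CPM in liquid, and its log2 change of −0.30 ± 0.12 did not pass (edgeR adjusted p = 0.0934). Rab43, which acts at the Golgi, had 4.88, 5.31, 5.18 and 4.69 CPM in hydrogel against 3.85, 3.95, 3.83 and 2.62 CPM in liquid. Its log2 change of 0.49 ± 0.16 passed narrowly (edgeR adjusted p = 0.0462) and did not pass when any 1 of the hydrogel libraries, or liquid 1, 3 or 4, was left out, where the adjusted p reached 0.121, nor with upper-quartile scaling or no low-count filter. Gm45140, with 14 reads in all, covers 75.4% of the exon bases of Rab43 on the same strand, so that the count of Rab43 is uncertain.

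Rab1a and Rab1b, the Rabs of transport from the endoplasmic reticulum to the Golgi, were among the 6 most abundant members per kilobase of exon and did not pass. Rab1b had 229, 231, 231 and 235 CPM in hydrogel against 247, 219, 271 and 252 CPM in liquid (log2 change −0.09 ± 0.07, edgeR adjusted p = 0.365). Rab1a averaged 385 ± 19.5 CPM in hydrogel and 349 ± 36.2 CPM in liquid (SD, n = 4 each; log2 change 0.14 ± 0.09, edgeR adjusted p = 0.258). Rab39b, at 4.03, 2.50, 2.59 and 2.14 CPM in hydrogel against 2.05, 2.10, 3.48 and 3.595 CPM in liquid, gave a log2 change of 0.00 to 2 decimals (SE 0.27). For each of these 3 genes the cultures overlapped. The other members, Rab30, Rab33a and Rab33b, had log2 changes of −0.39, −1.06 and −0.22, and none of these passed; Rab33a rests on 42 reads in hydrogel and 101 in liquid.

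Exocytic Rabs bring secretory vesicles to the plasma membrane. Of 9 members, 7 were tested: 1 rose, 2 fell and 4 did not pass (42.9% called, beside 29.3% of all genes, median log2 change −0.10). The summed level was 206 ± 8.04 CPM per kb in hydrogel and 214 ± 22.7 CPM per kb in liquid (SD, n = 4 each), with overlap. Rab37 (ENSMUSG00000020732), a Rab of secretory granules known from mast cells, had 102, 79.8, 85.7 and 86.0 CPM in hydrogel against 149, 105.5, 145 and 136 CPM in liquid. The groups were apart, though hydrogel 1 and liquid 2 lay close, and the log2 change was −0.60 ± 0.12 (edgeR adjusted p = 0.00423). Mast cell and basophil markers fell for 6 of 10 tested and rose for 0, beside 14.1% and 15.1% of all genes. Their summed level was 65.5 to 187 CPM in hydrogel and 108 to 560 CPM in liquid, and none was at 0 in all libraries. That sum was highest in liquid 2, where Rab37 was lowest among liquid libraries; the part of these markers in the change of Rab37 was not tested. With the macrophage score as a covariate the log2 change of Rab37 was 0.10 (edgeR adjusted p = 0.742).

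Rab8a, which takes vesicles from the Golgi to the surface, had 128, 131, 136 and 136 CPM in hydrogel against 119.6, 106, 113 and 115 CPM in liquid. The groups were apart, liquid 2 being the lowest library. Rab8a rose by a log2 of 0.23 ± 0.06 (edgeR adjusted p = 0.0166), and did not pass without hydrogel 3, without hydrogel 4, with upper-quartile scaling or with no low-count filter. Its relative Rab8b had 318, 282, 307 and 262 CPM in hydrogel against 256, 222, 303 and 284 CPM in liquid and did not pass (log2 change 0.13 ± 0.11, edgeR adjusted p = 0.371). Rab3a, the Rab of synaptic vesicle release, had 3.12, 2.31, 2.701 and 3.30 CPM in hydrogel against 3.66, 5.69, 5.99 and 4.63 CPM in liquid. These were apart, and the log2 change was −0.80 ± 0.20 (edgeR adjusted p = 0.0134). Rab3d, of granule exocytosis, had 43.3, 47.9, 46.0 and 46.6 CPM in hydrogel against 49.98, 48.4, 47.95 and 50.5 CPM in liquid (log2 change −0.10 ± 0.06, edgeR adjusted p = 0.242). Rab10, which moves the glucose transporter GLUT4 to the surface and was the most abundant of this route per kilobase of exon, had 274, 266, 274 and 276 CPM in hydrogel against 288, 243, 316 and 317 CPM in liquid (log2 change −0.09 ± 0.09, edgeR adjusted p = 0.461).

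The 9 members with other roles act in cilia, lipid droplets, autophagy and ubiquitin ligases. Of the 8 tested, 2 fell, 0 rose and 6 did not pass (25.0% called, near the 29.3% of all genes, median log2 change −0.15). Rab28, known from photoreceptors and cilia, had 38.2, 37.2, 38.2 and 37.3 CPM in hydrogel against 46.9, 43.8, 48.01 and 51.9 CPM in liquid (log2 change −0.34 ± 0.07, edgeR adjusted p = 0.00504). Rab29, which binds the kinase LRRK2, had 26.98, 27.05, 29.6 and 30.9 CPM in hydrogel against 37.5, 34.4, 38.7 and 37.6 CPM in liquid (log2 change −0.37 ± 0.08, edgeR adjusted p = 0.0053). In both genes the hydrogel libraries lay wholly below the liquid libraries. Rab18, of lipid droplets and the endoplasmic reticulum, had the smallest change of the 8 (log2 −0.02, edgeR adjusted p = 0.793). Rab40b, a ubiquitin ligase subunit, had a log2 change of −0.83 ± 0.28 and did not pass (edgeR adjusted p = 0.051). Rab24 shares 62.4% of its exon bases with Prelid1 on the other strand, so that its count is uncertain.

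Per kilobase of exon and averaged over the 8 libraries, the levels of the members spanned a wide range. Rab5c led with 124 CPM per kb, before Rab1b with 105, Rab11a with 98.0, Rab1a with 96.6, Rab10 with 80.2 and Rab6a with 70.5 CPM per kb. Of the 53 members, 9 lay within the top 10% of tested genes on this scale, and 8 were under 1 CPM on average in both cultures. Of the 6 leading members, only Rab11a passed the test. Of the 3 with the largest rises, Rab31 had 22.6 CPM per kb in hydrogel and 9.55 in liquid, Rab7b had 14.1 in hydrogel and 2.94 in liquid, and Rab20 had 4.51 in hydrogel and 1.46 in liquid. Over all members the summed level was 1100 ± 23.8 CPM per kb in hydrogel and 1140 ± 90 CPM per kb in liquid (SD, n = 4 each), with overlap.

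Calls differed within several groups of genes that share a Rab number, so the balance within each pair was compared directly as a ratio. Such a ratio depends little on the scaling between libraries. In 15 pairs with both genes tested, the log2 ratio of CPM (plus 0.5) was apart between cultures for 6 pairs. An exact two-sided permutation test over 4 against 4 libraries gave its smallest possible p of 0.0286 for these 6, and the smallest Benjamini-Hochberg adjusted p over the 15 pairs was 0.0714, so that none passed. The log2 ratio of Rab7 to Rab7b was 2.18, 1.37, 1.44 and 1.61 in hydrogel against 3.94, 2.64, 4.08 and 3.6 in liquid, a mean difference (hydrogel minus liquid) of −1.92. The ratio of Rab6a to Rab6b averaged 4.38 ± 0.36 in hydrogel and 3.45 ± 0.17 in liquid (SD, n = 4 each), and that of Rab4a to Rab4b 1.06 ± 0.41 in hydrogel and 1.70 ± 0.14 in liquid.

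The ratio of Rab39 to Rab39b averaged −1.06 ± 0.25 in hydrogel and −0.28 ± 0.10 in liquid. That of Rab40b to Rab40c averaged −3.80 ± 0.22 in hydrogel and −3.03 ± 0.42 in liquid, and that of Rab1a to Rab1b 0.73 ± 0.08 in hydrogel and 0.50 ± 0.06 in liquid. Ratios within the Rab5 and Rab8 groups and that of Rab11a to Rab11b overlapped. For Rab5a to Rab5c the hydrogel minus liquid difference was 0.02 (exact permutation p = 0.514), for Rab8a to Rab8b it was 0.09 (0.486), and for Rab11a to Rab11b it was −0.17 (0.0571).

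**Figure D5:**
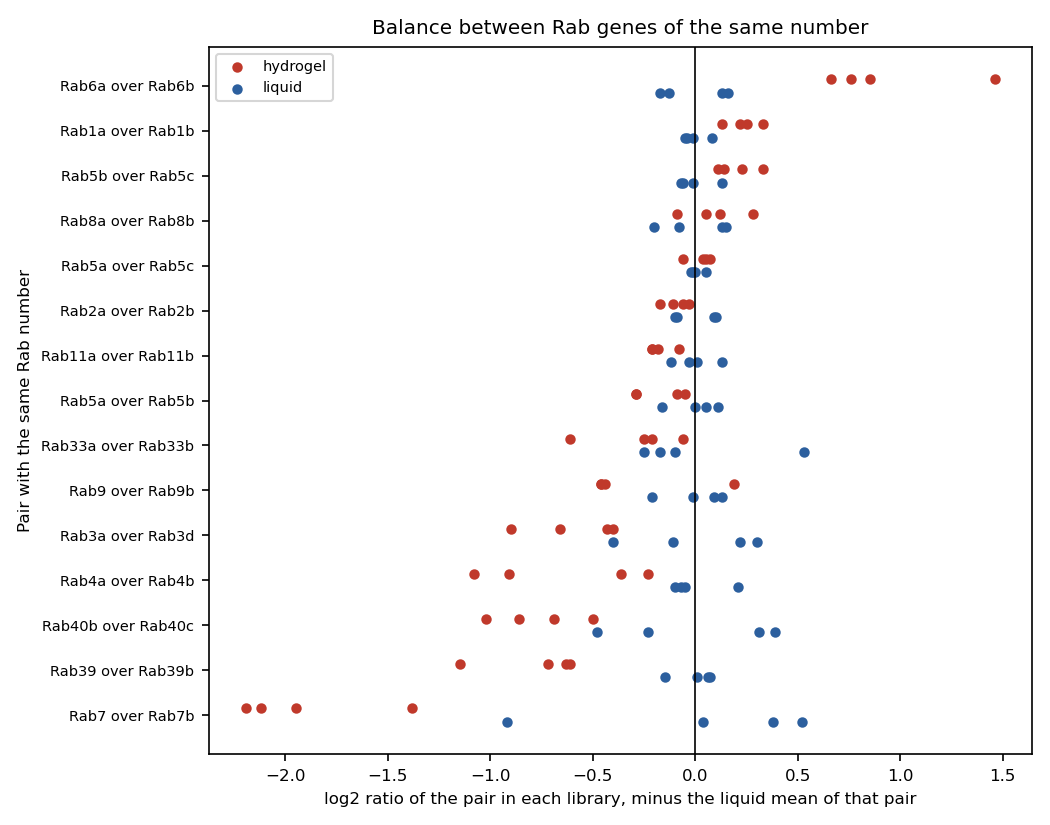
Log2 ratio of the levels of Rab genes with the same number (15 pairs, y axis) in each library, minus the mean of the liquid libraries for that pair (x axis), with hydrogel libraries in red and liquid libraries in blue. The hydrogel points lie wholly to the left of the liquid points for Rab7 over Rab7b, Rab39 over Rab39b, Rab40b over Rab40c and Rab4a over Rab4b, and wholly to the right for Rab6a over Rab6b and Rab1a over Rab1b.

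Genes of the machinery that drives the Rab cycle were counted in the same way. Of 113 listed regulators and effectors, 112 were tested: 26 rose and 12 fell, which is 33.9%, near the 29.3% of all genes, with a median log2 change of 0.01. Rabac1, the prenylated Rab acceptor, averaged 60.2 ± 1.24 CPM in hydrogel and 79.5 ± 2.05 CPM in liquid (SD, n = 4 each; log2 change −0.40 ± 0.05, edgeR adjusted p = 0.000744).

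Among 34 exchange factors, 9 rose and 2 fell (32.4% called, near the 29.3% of all genes). Sbf2, an exchange factor of the DENN family, averaged 17.5 ± 2.07 CPM in hydrogel and 7.55 ± 1.52 CPM in liquid (log2 change 1.21 ± 0.15, edgeR adjusted p = 0.00058). Ric1, part of the Rab6 exchange complex, rose by a log2 of 1.08 ± 0.15 (edgeR adjusted p = 0.000836), and Dennd1a, which activates Rab35, by 0.69 ± 0.10 (0.00119). Madd, which activates Rab3, averaged 232 ± 18.6 CPM in hydrogel and 322 ± 33.8 CPM in liquid (log2 change −0.47 ± 0.09, edgeR adjusted p = 0.00446), and Dennd2b fell by 1.01 on the log2 scale (0.00364).

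Of 34 tested genes listed as GTPase-activating proteins, by family or complex and not by shown activity, 7 rose and 3 fell (29.4% called, beside 29.3% of all genes). Tbc1d9 had 19.1, 35.0, 39.7 and 29.4 CPM in hydrogel against 6.93, 10.2, 5.92 and 5.05 CPM in liquid, apart between cultures, with a log2 change of 2.14 ± 0.26 (edgeR adjusted p = 0.000561). Evi5, which acts on Rab11, rose by a log2 of 1.81 ± 0.35 (edgeR adjusted p = 0.0039), and Tbc1d23 by 0.42 ± 0.08 (0.0046). Tbc1d8, Tbc1d14 and Tbc1d10c fell, with log2 changes of −0.31, −0.28 and −0.77 (edgeR adjusted p = 0.022, 0.0221 and 0.0306 in that order). None of these 3 held with each library left out in turn: Tbc1d8 did not pass without hydrogel 4, liquid 3 or liquid 4, Tbc1d14 without hydrogel 2, 3 or 4 or liquid 3 or 4, and Tbc1d10c passed without liquid 1 or liquid 4 only. Both Evi5 and Tbc1d9 were lowest among hydrogel libraries in hydrogel 1 and highest among liquid libraries in liquid 2. The summed macrophage, neutrophil, dendritic cell, and mast cell and basophil markers were too, so this order is not particular to macrophage markers.

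Among 36 effectors, 10 rose and 5 fell (41.7% called, beside 29.3% of all genes, 15.1% that rose and 14.1% that fell). This difference was not tested. Rab11fip5, a binding partner of Rab11, had 21.9, 40.9, 42.9 and 40.2 CPM in hydrogel against 4.17, 13.5, 5.46 and 6.64 CPM in liquid, a log2 change of 2.30 ± 0.35 (edgeR adjusted p = 0.00127). Rab11fip1, singled out after its values were seen, also rose (0.64 ± 0.12, edgeR adjusted p = 0.00455). In both effectors every hydrogel library was above every liquid library. The other listed genes of that name did not pass and overlapped between cultures, Rab11fip2 with a log2 change of −0.09 ± 0.18 (edgeR adjusted p = 0.75), Rab11fip3 with −0.28 ± 0.14 (0.148) and Rab11fip4 with 0.59 ± 0.65 (0.534). Rilpl2 averaged 60.6 ± 15.3 CPM in hydrogel and 21.6 ± 4.90 CPM in liquid (SD, n = 4 each; log2 change 1.49 ± 0.20, edgeR adjusted p = 0.000836), and its relative Rilpl1 averaged 1.69 ± 0.444 CPM in hydrogel and 4.20 ± 0.774 CPM in liquid (log2 change −1.31 ± 0.23, edgeR adjusted p = 0.00253). These 2 relatives changed in opposite directions. Plekhm1, a Rab7 effector of lysosome fusion, rose by a log2 of 0.61 ± 0.12 (edgeR adjusted p = 0.00425). Osbpl1a, a Rab7 effector that binds sterols, fell by 0.58 on the log2 scale (edgeR adjusted p = 0.000737), and Bicd2, which links Rab6 vesicles to dynein, averaged 132 ± 4.29 CPM in hydrogel and 193 ± 21.1 CPM in liquid (log2 change −0.55 ± 0.08, edgeR adjusted p = 0.00117). Rab11fip5 and Rilpl2 were lowest among hydrogel libraries in hydrogel 1 and highest among liquid libraries in liquid 2. The sums of macrophage, neutrophil, dendritic cell, and mast cell and basophil markers shared this order. With the macrophage score as a covariate, 3 of the 112 regulators were called, beside 4.72% of all genes. In that fit the log2 change was 0.21 for Rab11fip5 (edgeR adjusted p = 0.635) and 0.45 for Rilpl2 (0.441). Rilpl1 (−1.40, 0.148) and Osbpl1a (−0.62, 0.0801) kept a change of similar size but were not called.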

How the data were processed

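The deposited values are raw counts per gene in 1 table of 8 libraries, whole numbers that the authors did not normalize. Per the labels' protocols, 150 ng of RNA per library was polyA-selected and prepared with a stranded kit. The tools named in the submitters' processing notes are bcl2fastq, STAR 2.7.10b and HTSeq 0.13.5, with build GRCm39; the sources used here give neither the annotation release nor the strand setting of the counting. Without that setting, genes that overlap a neighbour are uncertain: 15 members share exon bases with a gene on the opposite strand and 5 with a gene on the same strand, and reads shared with processed pseudogenes were not resolved. Symbols, exon lengths and overlaps came from GENCODE M21, an annotation of build GRCm38, from which no coordinate is printed; 26534 of 27679 identifiers had a symbol, and the 1145 without one held at most 0.135% of a library. Rab3c had no row. In the table, 2 lines named no gene and were left out, and 0 sample columns were unused.

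From the counts, genes were filtered with filterByExpr by group (13845 kept), normalized by TMM and compared by the quasi-likelihood test of edgeR 4.0.16 in R 4.3.3, with no term but culture and with Benjamini-Hochberg adjustment at 0.05 over all tested genes. A log2 change divided by the root of its F statistic gives its standard error. CPM are TMM-scaled, and CPM per kb divide them by the exon union. Totals of 27012172 to 49281611 counts set the precision, and the low members rest on few reads. Paralogue ratios (0.5 added to CPM) were tested by exact permutation (scipy 1.17.1). Promoter sequences came from RefSeq, GRCm38.p6. The edgeR, limma-voom and DESeq2 comparisons of the cultures were tested on simulated counts.

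The members, roles, regulator lists, marker lists and tests were chosen with earlier results of these data known. Given in full were the members that rose and the 8 that fell with the smallest adjusted p, the most abundant per kb of each role, and paralogues whose calls differ; of the regulators, up to 3 called in each direction per list, of which 1 is not reported here. Alternatives were other scalings (DESeq2 size factors, upper quartile, library totals), other filters, DESeq2 1.42.0, limma-voom (limma 3.58.1), the replicate number as a block, and each library left out; added after seeing the data were a fit without hydrogel 1 and liquid 2 and a fit with the macrophage score as covariate. Tables and figures used Python 3.11.15, pandas 2.3.3, numpy 2.4.6 and matplotlib 3.10.9.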

Additional observations from a re-analysis of the deposited data

Results flagged for a closer look

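In 102 groups of 4 libraries (the members given library by library, the summed levels by role and the paralogue ratios, in each culture), 8 had 1 library far from the other 3 by Dixon's criterion. Chance flags about 1 in 20 groups. Hydrogel 1 was the far library for Rab11a (266 CPM in hydrogel), for Rab36 (21.3 CPM in hydrogel) and for the summed level of the recycling Rabs (157 CPM per kb in hydrogel), each the highest of its group and the nearest to the liquid libraries. Liquid 2 was the far library for Rab11b (62.9 CPM in liquid), the nearest to the hydrogel libraries, and for the log2 ratio of Rab4a to Rab4b (1.91 in liquid), the farthest from them. Liquid 3 was high for Rab5a (43.1 CPM in liquid), and liquid 4 was low for Rab43 (2.62 CPM in liquid). Hydrogel 3 was high for the log2 ratio of Rab9 to Rab9b (6.10 in hydrogel), where Rab9b had 40 reads in all hydrogel libraries.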

How the results depend on the processing

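The main test called 4052 genes, 20 of 48 members (7 rose, 13 fell) and 38 regulators. DESeq2 size factors, upper-quartile scaling, limma-voom, DESeq2 and both other filters gave 18 to 23 members; library totals alone gave 11 that rose. Leaving out 1 library at a time gave 2700 genes (without hydrogel 2) to 4975 (without liquid 2), 1224 to 2446 of them lower in hydrogel, and 18 to 28 members. Without both hydrogel 1 and liquid 2 there were 31 members (11 rose, 20 fell). With the macrophage score as a covariate there were 653 genes (354 rose, 299 fell), 1 member (0 rose, 1 fell) and 3 regulators; there the log2 change turned positive for Rab1b (0.13), Rab2a (0.07), Rab2b (0.22), Rab4b (0.10), Rab6a (0.29), Rab10 (0.22), Rab13 (0.60), Rab18 (0.06), Rab21 (0.25), Rab22a (0.40), Rab30 (0.38), Rab37 (0.10), Rab39b (0.96), Rab40b (0.02) and Dennd2b (0.02), and negative for Rab19 (−2.04), Rab24 (−0.34), Rab34 (−1.02), Rab40c (−0.03), Evi5 (−0.19) and Plekhm1 (−0.03); the cause was not tested. Rab39b also changed sign with DESeq2 size factors (0.00), library totals (0.07), DESeq2 (0.00) and the replicate block (0.00), and ran from −0.23 to 0.14 with 1 library left out. Rab18 was 0.04 with library totals and −0.05 to 0.01 with 1 library left out, where Rab34 was −0.21 to 0.29. Rab8a and Rab43 lost their calls under settings named in the report; the other 18 called members lost theirs under the covariate alone, except Rab4a, which kept it. Of these, Rab3a (−0.95), Rab17 (−1.21) and Rab29 (−0.32) kept a change of similar size there, with a larger standard error.

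The 2 cultures share replicate numbers, but no label ties a number to a shared mouse or day, and the same-numbered libraries' deviations correlated by 0.22, 0.33, −0.134 and 0.103, so the numbers were not taken as pairs. With the replicate block, 4238 genes and 21 members (7 rose, 14 fell) were called, and the paralogue test, whose smallest p is then 0.125, called 0 pairs.

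Depth limits the scarce members: Rab9b, Rab33a and Rab34 rest on 38 to 101 reads per culture.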
